A study of Mus musculus with 10 samples.

Results

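The pan-reactive astrocyte genes described here are *Gfap*, *Vim*, *Lcn2*, *Serpina3n*, *Cp*, *Aspg*, *Steap4*, *S1pr3* and *Cd44*. They were picked by symbol, with earlier results of these data known, and are 9 of the 15900 genes with CAGE values in this series. All 9 were listed once each and all 9 passed the filter on low values.

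Astrocytes respond to seizures, injury and inflammation by becoming reactive, a state in which they enlarge, build up intermediate filaments and secrete proteins of the acute phase and of defence. The genes called pan-reactive are those known to rise both in astrocytes after loss of blood supply and in astrocytes after systemic inflammation, in contrast to the A1-type and A2-type genes, which are tied to 1 of these settings. Cytokines of the IL-6 family, acting through JAK and STAT3, and IL-1 and TNF, acting through NF-kB, are known inputs to this state. Several of the genes are not restricted to astrocytes: *Vim* and *Cd44* are also used by vascular, meningeal and immune cells, and *Lcn2* by neutrophils and endothelial cells.

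Cap analysis of gene expression (CAGE) sequences the capped 5′ ends of transcripts, so a tag marks where transcription started, and the values are counts of tags scaled to a common library total (CPM). Whole hippocampi were taken from male ICR mice that were 9 to 10 weeks old at treatment, and 5 groups held 2 mice apiece. Pre-SE mice had no pilocarpine (PILO), a muscarinic agonist. The authors call them both control and naive, and their control mice received saline in its place. All other mice were given PILO after methyl scopolamine, which shields the periphery, went into status epilepticus (SE) and received diazepam to end it. SE 6 h and SE 2 days mice were sampled at those times after SE without further treatment. SE + LEV 6 h and SE + LEV 2 days mice were also given oral levetiracetam (LEV), an antiseizure drug that binds the vesicle protein SV2A, 1 time before the 6 h sample and 5 times before the 2 days sample. The pre-SE group therefore differs from the others in PILO, in SE and in the time after treatment together. Whether it was given methyl scopolamine is not stated. The 4 groups after SE also share the rescue with diazepam.

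The promoters of *Gfap*, *Lcn2*, *Serpina3n* and *Steap4* are shown because a CAGE value is a readout of transcription starts, and because these genes span the patterns of calls found below: a rise at 2 days that was also seen with LEV (*Gfap*), a rise called at both times (*Lcn2*), a rise that was called at 2 days and not at 6 h (*Serpina3n*) and a rise called at 6 h and not at 2 days (*Steap4*). For *Steap4* no difference was called when the 2 times were compared directly. The sequences are from RefSeq on the GRCm38.p6 build, in the 5′ to 3′ direction of the gene, and cover up to 250 bases before the annotated start. The CAGE values were made on mm9 and carry no positions, so the windows are those of the annotation and not of the tags. Capitals mark matches on either strand to TTCNNNGAA (STAT), TGANTCA (AP-1), GGANNNTCC (NF-kB core), ACANNNTGT (glucocorticoid receptor) or TTNCNNAA (C/EBP), where N is any base.
Gfap (chr11:102897201-102897450, minus strand): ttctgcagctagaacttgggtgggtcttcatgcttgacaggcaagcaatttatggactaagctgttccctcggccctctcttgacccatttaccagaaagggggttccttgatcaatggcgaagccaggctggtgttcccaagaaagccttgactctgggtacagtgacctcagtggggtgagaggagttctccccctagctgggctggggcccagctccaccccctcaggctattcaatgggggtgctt
Lcn2 (chr2:32387798-32387989, minus strand): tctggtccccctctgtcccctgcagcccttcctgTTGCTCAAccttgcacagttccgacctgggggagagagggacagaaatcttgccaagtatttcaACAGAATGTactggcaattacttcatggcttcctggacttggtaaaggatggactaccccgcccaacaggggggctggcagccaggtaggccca
Serpina3n (chr12:104406458-104406707, plus strand): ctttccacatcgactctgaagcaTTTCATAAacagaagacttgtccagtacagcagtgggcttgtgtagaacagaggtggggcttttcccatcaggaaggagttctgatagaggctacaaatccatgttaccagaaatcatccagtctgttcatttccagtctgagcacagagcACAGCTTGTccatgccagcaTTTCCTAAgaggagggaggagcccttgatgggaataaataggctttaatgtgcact
Steap4 (chr5:7960222-7960471, plus strand): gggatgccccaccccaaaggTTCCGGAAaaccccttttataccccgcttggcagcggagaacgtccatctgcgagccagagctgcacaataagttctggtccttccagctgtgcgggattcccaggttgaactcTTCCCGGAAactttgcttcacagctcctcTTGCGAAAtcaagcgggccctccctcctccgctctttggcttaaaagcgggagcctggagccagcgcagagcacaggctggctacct

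The window of *Gfap* held none of these letters. In *Steap4* the STAT letters stood 116 bases before the start, and C/EBP letters, matched on both strands, at 230 and 87 bases. The glucocorticoid receptor letters stood 152 bases before the start of *Lcn2* and 76 bases before that of *Serpina3n*, with C/EBP letters at 216 bases in *Lcn2* and at 227 and 56 bases in *Serpina3n*. Bases covered by an annotated transcript are left out, which were the 58 nearest the start of *Lcn2* and 195 of the 250 before the second start of *Cp*. Of the 9 genes, STAT letters were before 1, AP-1 letters before 1 (*Cp*), NF-kB core letters before 0, glucocorticoid receptor letters before 2 and C/EBP letters before 6 (*Vim*, *Lcn2*, *Serpina3n*, *Cp*, *Aspg* and *Steap4*). Over all 32851 mouse promoter windows of 250 bases, with no bases left out, the shares were 7.02% for STAT, 6.75% for AP-1, 7.27% for the NF-kB core, 5.84% for the glucocorticoid receptor and 36.8% for C/EBP. A match is a description of the letters and no evidence of binding.

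Tag counts were inferred from the spacing of the rounded CPM values and not taken from a table of counts. By that inference the libraries held 10540698 to 51710968 tags on listed genes, so that 3 tags were worth 0.058 to 0.285 CPM. Differences are given as logFC, the difference between group means of log2(CPM + 0.1), which understates the change of genes with low values, followed by ± its standard error. A gene is called when its adjusted p in limma is at most 0.05. With 2 mice against 2, an exact permutation test cannot go below p = 0.333, and a call here depends on the spread that limma pools over genes and groups. The labels name the 2 mice of a group only by number, and in hippocampal tissue more cells of a type and more RNA per cell cannot be told apart. Over the genes tested, logFC had a median of -0.13 for SE 6 h against pre-SE and -0.0047 after median-of-ratios rescaling, and no member changed direction under that rescaling.

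Against pre-SE mice, all 9 genes had positive logFC values at both times after SE without LEV, and more were called at 2 days than at 6 h. At 6 h, 3 of 9 were called higher (*Vim*, *Lcn2* and *Steap4*), where 2.76% of all genes tested were, and the median logFC of the 9 was 2.02. The SE 6 h pair lay wholly above the pre-SE pair in 8 of 9 genes, which was so for 18.6% of all genes, and in *Serpina3n* the groups overlapped. At 2 days, 7 of 9 were called higher (*Gfap*, *Vim*, *Lcn2*, *Serpina3n*, *Aspg*, *S1pr3* and *Cd44*), where 5.07% of all genes were, and their median logFC was 3.60 against -0.03 for all genes. The SE 2 days pair lay wholly above the pre-SE pair in all 9, as it did in 26.3% of all genes. None of the 9 was called lower. The same shares, 2.76% at 6 h and 5.07% at 2 days, are the reference for the lists of related genes below.

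**Figure D1:**
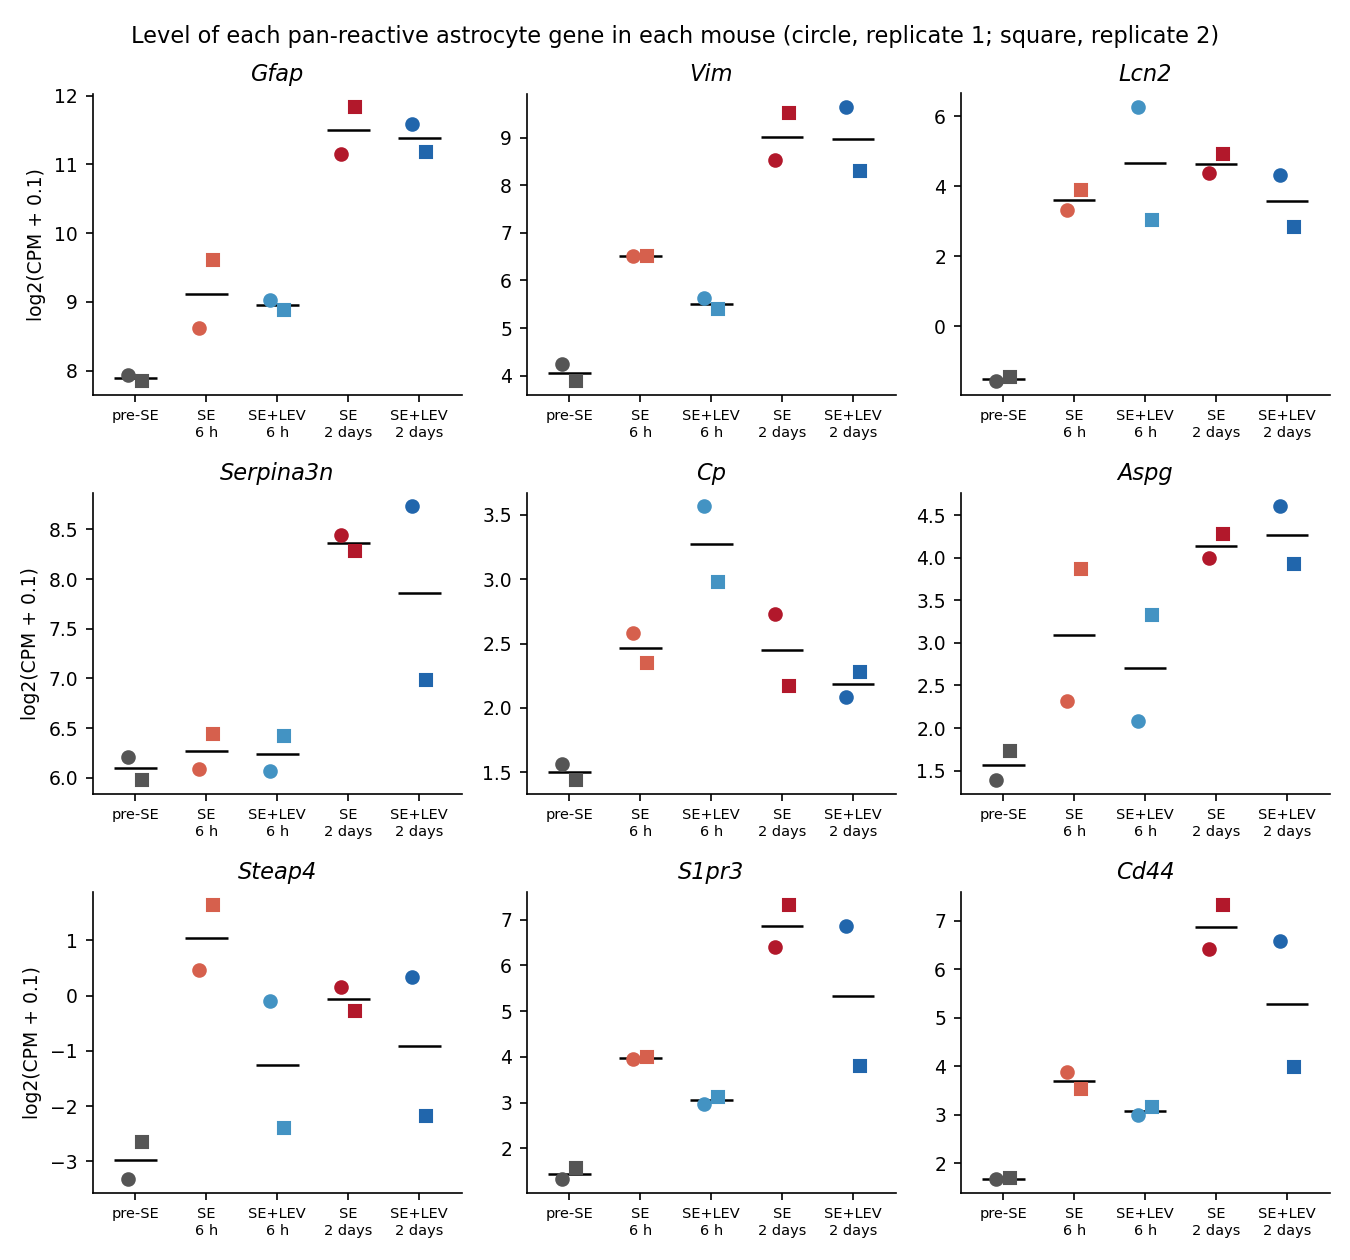
Level of each gene, as log2(CPM + 0.1), in each of the 10 mice by group; circles are replicate 1, squares replicate 2 and bars the mean of the group. Points of SE 2 days mice lie above those of pre-SE mice in all 9 panels, and the SE + LEV 2 days mice stand furthest apart for *S1pr3*, *Cd44* and *Steap4*.

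*Gfap* and *Vim* encode type III intermediate filament proteins, which assemble together in reactive astrocytes. *Gfap* (mm9 chr11:102748650-102762226, minus strand) stood at 246 and 230 CPM before SE. After 6 h it was 394 and 783 CPM without LEV and 520 and 473 with LEV, and after 2 days 2282 and 3642 CPM without LEV and 3071 and 2312 with LEV. The levels thus formed 3 tiers, pre-SE, 6 h and 2 days, and within each time the mice with and without LEV overlapped. Against pre-SE mice, the logFC of *Gfap* was 3.60 ± 0.36 in SE 2 days mice, with adjusted p = 0.000955. At 6 h it was 1.22 ± 0.36, with adjusted p = 0.112, so the difference at 6 h was not called, although both mice were above the pre-SE mice.

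*Vim* (mm9 chr2:13495554-13504453, plus strand) had 18.9 and 14.7 CPM before SE. The values at 6 h were 90.7 and 90.8 CPM, or 49.2 and 42.3 where LEV was given, and those at 2 days 368 and 737 CPM, or 798 and 314 where LEV was given. It was called at both times after SE. Its logFC against pre-SE mice was 2.44 ± 0.43 at 6 h (adjusted p = 0.0144) and 4.96 ± 0.43 at 2 days (adjusted p = 0.000728). At 6 h both mice given LEV were lower than both mice not given it, and at 2 days the mice with LEV held both the highest and the lowest value of the 4. Among 10 intermediate filament genes, *Vim* and *Gfap* included, 2 passed the test as higher at 6 h (*Vim* and the neuronal *Ina*) and 4 at 2 days (*Gfap*, *Vim*, the stem cell filament gene *Nes* and the lamin gene *Lmna*). None of the 10 passed it as lower, and the synemin gene *Synm*, lower in both mice at 2 days, had a logFC of -1.07 ± 0.33 (adjusted p = 0.0985).

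*Lcn2* and *Serpina3n* encode secreted proteins. *Lcn2*, lipocalin 2, binds bacterial siderophores that carry iron and is a protein of the acute phase. *Lcn2* (mm9 chr2:32240153-32243317, minus strand) was barely detected before SE, at 0.24 and 0.27 CPM. At 6 h the mice without LEV had 9.81 and 14.7 CPM and those with LEV 76.1 and 8.16 CPM. At 2 days the former had 20.6 and 30.1 CPM and the latter 19.8 and 7.06 CPM. All 8 mice after SE were therefore above the pre-SE mice, and 1 mouse with LEV at 6 h had the highest value of the series. The logFC of *Lcn2* against pre-SE mice was 5.09 ± 0.85 in SE 6 h mice (adjusted p = 0.0116) and 6.14 ± 0.85 in SE 2 days mice (adjusted p = 0.00302). It was the only one of the 9 called in SE + LEV 6 h against pre-SE mice, with a logFC of 6.14 ± 0.85 and adjusted p = 0.0195. Without SE + LEV 6 h replicate 1 that logFC was 4.54 and was no longer called, and the call was also lost without either pre-SE mouse.

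*Serpina3n*, an inhibitor of serine proteases, was called at 2 days and overlapped pre-SE mice at 6 h. *Serpina3n* (mm9 chr12:105644939-105652539, plus strand) gave 74.0 and 62.9 CPM in the pre-SE pair. The SE 6 h pair gave 68.2 and 87.0 CPM, the SE + LEV 6 h pair 66.8 and 85.7 CPM, the SE 2 days pair 347 and 312 CPM and the SE + LEV 2 days pair 426 and 127 CPM. The 6 mice before SE and at 6 h lay within 62.9 to 87.0 CPM, and all 4 mice at 2 days were above that range. Its logFC against pre-SE mice was 0.17 at 6 h, with a 95% interval of -0.82 to 1.17, and 2.27 ± 0.45 at 2 days (adjusted p = 0.0158). The call at 2 days was lost without either pre-SE mouse and without either SE 2 days mouse. Over all alternatives that logFC ran from 2.15 to 2.39. The *Serpina3* genes form a cluster of close paralogs, between which the counting of tags could split or share them. Of the 4 genes of the cluster tested, 3 were called higher at 2 days and 0 at 6 h. Besides *Serpina3n*, these were *Serpina3g* with a logFC of 2.40 and *Serpina3h* with a logFC of 2.46, while *Serpina3c* had a logFC of 0.29 and was not called.

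*Cp* and *Steap4* act on iron and copper. *Cp*, ceruloplasmin, is a ferroxidase that astrocytes carry on their surface. *Cp* (mm9 chr3:19857054-19909145, plus strand) gave 2.86 and 2.61 CPM in the pre-SE pair. The SE 6 h pair gave 5.90 and 5.0 CPM, the SE + LEV 6 h pair 11.8 and 7.78 CPM, the SE 2 days pair 6.53 and 4.39 CPM and the SE + LEV 2 days pair 4.14 and 4.76 CPM. All 8 mice after SE were above the pre-SE mice, and the highest pair was that with LEV at 6 h. *Cp* was not called in any comparison: its logFC against pre-SE mice was 0.97 ± 0.35 at 6 h (adjusted p = 0.191) and 0.95 ± 0.35 at 2 days (adjusted p = 0.161). The gene overlaps *Hps3* on the opposite strand, and whether strand was used in counting is not stated. The choroid plexus also makes *Cp*, and the summed level of 6 choroid plexus markers ran from 9.33 to 4031 CPM over the libraries, mostly through *Ttr*, and differed widely between the mice of a group. The library with 4031 CPM of these markers (SE 6 h replicate 2) had 5.0 CPM of *Cp* and that with 9.33 CPM (SE 6 h replicate 1) had 5.90 CPM. In the SE + LEV 6 h and SE 2 days groups the mouse with more of these markers had more *Cp*: 876 against 42.2 CPM of markers with 11.8 against 7.78 CPM of *Cp* in SE + LEV 6 h mice, and 70.0 against 24.6 CPM of markers with 6.53 against 4.39 CPM of *Cp* in SE 2 days mice. In SE + LEV 2 days mice the markers stood at 1510 and 28.0 CPM and *Cp* at 4.14 and 4.76 CPM. In pre-SE mice the markers stood at 12.9 and 1713 CPM and *Cp* at 2.86 and 2.61 CPM. The part of the choroid plexus in the values of *Cp* was not tested.

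*Steap4*, a metalloreductase of iron and copper, was near the limit of detection. *Steap4* (mm9 chr5:7960472-7982213, plus strand) gave 0 and 0.06 CPM before SE, which was 0 and 3 tags. At 6 h it gave 1.28 and 3.01 CPM without LEV and 0.83 and 0.09 CPM with LEV. At 2 days it gave 1.02 and 0.72 CPM without LEV and 1.17 and 0.12 CPM with LEV. The mean of SE 6 h mice was at least 20.7-fold higher and that of SE 2 days mice at least 8.41-fold higher than 3 tags in the shallower pre-SE library. *Steap4* was called at 6 h (adjusted p = 0.0437, and 0.0553 with the replicate number as a block) and not at 2 days (adjusted p = 0.0983). The call at 6 h was lost with no mean-variance trend, with a filter of 1 CPM, with pseudocounts of 0.5 and 1, and when any 1 mouse of the pre-SE, SE 6 h or SE 2 days groups was left out. Over all alternatives the adjusted p ran from 0.0108 to 0.283. In the direct test of the 2 times the logFC of SE 2 days against SE 6 h was -1.11 ± 0.91 (adjusted p = 0.527). The lowest mouse of each LEV group held 1 tag at 6 h and 3 tags at 2 days. Of the other STEAP genes none was called at either time, and of 12 entries for genes of iron handling, 2 were called higher at 6 h (*Lcn2* and the heme oxygenase gene *Hmox1*) and 3 at 2 days (*Lcn2*, *Hmox1* and the ferritin gene *Ftl1*).

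*S1pr3* and *Cd44* encode receptors at the cell surface. *S1pr3* is a G protein-coupled receptor for sphingosine 1-phosphate, a lipid signal. *S1pr3* (mm9 chr13:51503987-51518166, plus strand) was low before SE, at 2.41 and 2.86 CPM. At 6 h it reached 15.5 and 15.8 CPM without LEV and 7.77 and 8.63 CPM with LEV, and at 2 days 85.0 and 159 CPM without LEV and 117 and 13.8 CPM with LEV. Its logFC against pre-SE mice was 5.42 ± 0.75 at 2 days (adjusted p = 0.00303) and 2.53 ± 0.75 at 6 h (adjusted p = 0.120). Both LEV mice at 6 h were below both SE mice, whereas at 2 days 1 LEV mouse lay between the SE mice and the other below them and below the SE 6 h mice as well. Of the 7 measured S1P receptor and S1P enzyme genes, the kinase gene *Sphk1*, which makes the ligand, was called at 6 h (logFC 3.73 ± 0.70, adjusted p = 0.0198). At 2 days *S1pr3*, *Sphk1* and the lyase gene *Sgpl1* were called higher.

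*Cd44* encodes the main receptor for hyaluronan, a sugar polymer of the extracellular matrix. *Cd44* (mm9 chr2:102651298-102741822, minus strand) started from 3.10 and 3.15 CPM before SE. It was 14.6 and 11.5 CPM at 6 h, or 7.87 and 8.82 under LEV, and 85.3 and 159 CPM at 2 days, or 96.1 and 15.8 under LEV. Its logFC against pre-SE mice was 5.18 ± 0.66 at 2 days (adjusted p = 0.00205) and 2.02 ± 0.66 at 6 h (adjusted p = 0.152). Of 8 measured genes of hyaluronan synthesis and binding, 0 were called at 6 h and 3 were called higher at 2 days, *Cd44*, the hyaluronan synthase gene *Has2* (logFC 4.91 ± 0.95) and the receptor gene *Hmmr* (logFC 4.19 ± 0.50).

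*Aspg* encodes an asparaginase. *Aspg* (mm9 chr12:113344894-113365784, plus strand) had 2.52 and 3.23 CPM before SE. It had 4.88 and 14.5 CPM at 6 h, or 4.15 and 9.96 under LEV, and 15.9 and 19.3 CPM at 2 days, or 24.2 and 15.1 under LEV. The mice of each 6 h group lay far apart, and those with LEV overlapped those without at both times. Its logFC against pre-SE mice was 2.58 ± 0.54 at 2 days (adjusted p = 0.0222) and 1.53 ± 0.54 at 6 h (adjusted p = 0.184). The call at 2 days was lost without either pre-SE mouse and without either SE 2 days mouse. Over all alternatives that logFC ran from 2.26 to 2.75. A microRNA gene lies within *Aspg*, a long noncoding RNA gene overlaps *Gfap* and a U6 RNA gene lies within *Cd44*, and none of these was listed.

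**Figure D2:**
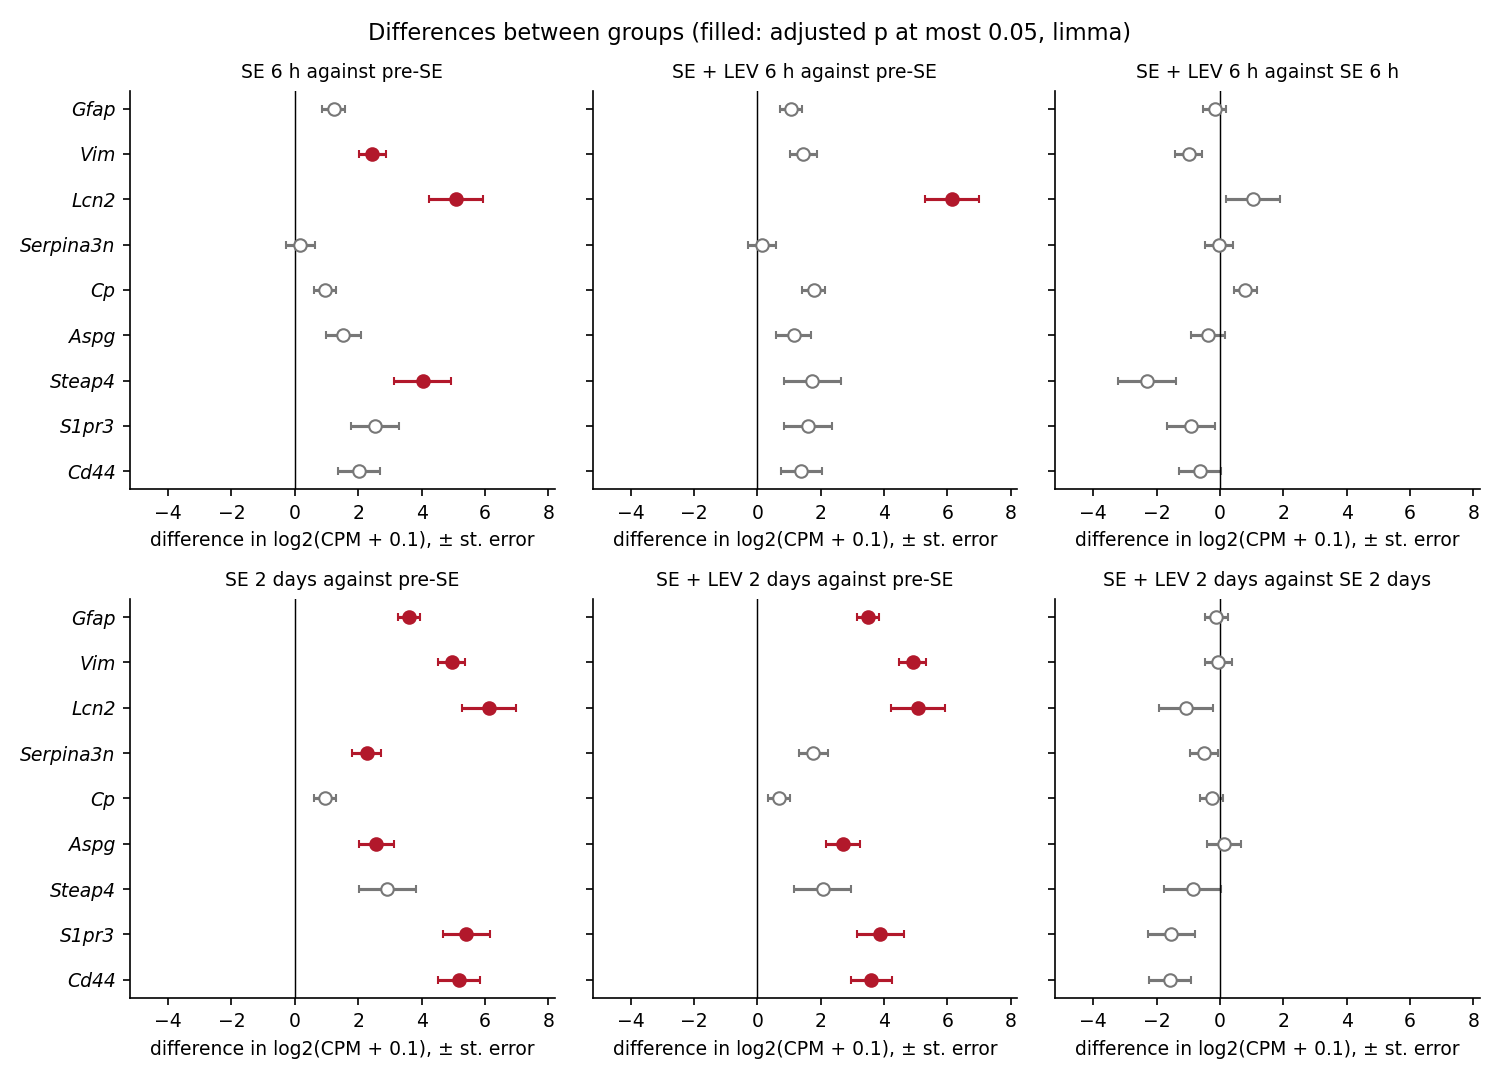
logFC of each gene, as the difference in log2(CPM + 0.1) with its standard error, in 6 comparisons; filled red points are called at an adjusted p of at most 0.05. The left and middle panels show rises against pre-SE mice without and with LEV, with 7 and 6 filled points at 2 days, and the right panels, which set LEV mice against SE mice, hold 0 filled points.

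The 2 times without LEV were also compared directly. Against SE 6 h mice, 4 of 9 were called higher in SE 2 days mice, where 3.14% of all genes were: *Cd44* (logFC 3.16 ± 0.66, adjusted p = 0.0273), *Vim* (2.52 ± 0.43, adjusted p = 0.0106), *Gfap* (2.38 ± 0.36, adjusted p = 0.00703) and *Serpina3n* (2.09 ± 0.45, adjusted p = 0.0303). The call of *Serpina3n* was lost with no mean-variance trend, without SE + LEV 6 h replicate 2 and when any 1 SE 6 h or SE 2 days mouse was left out, and its adjusted p ran from 0.0017 to 0.16 over the alternatives. *Cd44* was lost when any 1 SE 6 h or SE 2 days mouse was left out, *Vim* without either SE 6 h mouse or SE 2 days replicate 2, and *Gfap* without SE 2 days replicate 2. *S1pr3* had a logFC of 2.89 ± 0.75 and adjusted p = 0.0626, and was called with only the groups compared and without either SE + LEV 2 days mouse. *Lcn2* and *Aspg* had logFC values of 1.05 each, with adjusted p = 0.524 and 0.313, and *Cp* had a logFC of -0.02 with a 95% interval of -0.80 to 0.76. Under LEV, *Vim* (3.45 ± 0.43, adjusted p = 0.00491) and *Gfap* (2.43 ± 0.36, adjusted p = 0.00847) were called higher at 2 days than at 6 h, 2 of 9 where 2.06% of all genes were. That call of *Gfap* was lost without either SE + LEV 6 h mouse and without SE + LEV 2 days replicate 1. Its logFC ran from 2.22 to 2.63 over the alternatives. *Cp* was lower in both LEV mice at 2 days than in both at 6 h, with a logFC of -1.09 ± 0.35 that was not called (adjusted p = 0.203).

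LEV mice were compared with SE mice of the same time to ask whether the drug altered these rises. At 6 h, 0 of 9 genes were called in either direction, where 0.0126% of all genes were called lower and 0 higher, and 2 members were lower and 1 higher by an unadjusted p under 0.05. Both LEV mice were below both SE mice in 4 of 9 genes (*Vim*, *Steap4*, *S1pr3* and *Cd44*), as in 13.4% of all genes, and above them in *Cp*. *Vim* had a logFC of -0.99, with a 95% interval of -1.94 to -0.05 before adjustment, and *Steap4* a logFC of -2.30, with an interval of -4.32 to -0.29. *Cp* had a logFC of 0.81, with an interval of 0.03 to 1.58. The intervals of *Gfap* (-0.96 to 0.63) and *Serpina3n* (-1.02 to 0.97) include 0 and do not exclude a change of either sign. The median logFC of the 9 was -0.38 against 0.04 for all genes.

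At 2 days, 0 of 9 genes were called lower or higher in LEV against SE mice, as were 0% of all genes, with 1 member lower (*Cd44*) and 0 higher at an unadjusted p under 0.05. Both LEV mice were below both SE mice in 1 of 9 genes, *Lcn2*, as in 12.2% of all genes. The logFC was -0.11 for *Gfap*, with a 95% interval of -0.91 to 0.68, and -0.06 for *Vim*, with an interval of -1.002 to 0.889. It was -1.58 for *Cd44* (-3.04 to -0.12) and -1.53 for *S1pr3* (-3.20 to 0.14), and these differences rest on 1 of the LEV mice. Without SE + LEV 2 days replicate 2, the logFC of *S1pr3* was 0.01 and that of *Cd44* was -0.28. The LEV effect itself, compared between 2 days and 6 h, was called in 0 of 9 genes and in 0% of all genes, and 0 members had an unadjusted p under 0.05 there. Limma was the one tool run for these counts of 0.

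The mice given LEV were also set against pre-SE mice, which served as the reference for the groups without LEV as well. In SE + LEV 6 h mice 1 of 9 genes was called higher (*Lcn2*), where 0.315% of all genes were. In SE + LEV 2 days mice 6 of 9 were (*Gfap*, *Vim*, *Lcn2*, *Aspg*, *S1pr3* and *Cd44*), where 2.83% of all genes were, and the median logFC was 3.49 against 0.02 for all genes. *Vim* had a logFC of 4.90 ± 0.43 (adjusted p = 0.00106) and *Gfap* of 3.49 ± 0.36 (adjusted p = 0.00174). *Serpina3n* had a logFC of 1.77 ± 0.45 and was not called (adjusted p = 0.0764). Without SE + LEV 2 days replicate 2, 7 of 9 were called, *Serpina3n* among them, and without pre-SE replicate 1 or 2 only *Gfap* and *Vim* were.

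The 2 SE + LEV 2 days mice differed from each other in these genes more, by the median, than the mice of any other group. Replicate 1 was higher than replicate 2 in 8 of 9 genes, all but *Cp*, by a median absolute difference of 1.48 on the log2 scale, against 0.38 for all genes tested in the same mice. The corresponding medians over the 9 genes were 0.23 for pre-SE, 0.35 for SE 6 h, 0.36 for SE + LEV 6 h and 0.56 for SE 2 days. Replicate 1 exceeded replicate 2 by 8.49-fold in *S1pr3*, 6.08-fold in *Cd44*, 3.35-fold in *Serpina3n* and 1.33-fold in *Gfap*. Set on a scale where the pre-SE mean is 0% and the SE 2 days mean 100% of the logFC, replicate 1 stood at a median of 102% over the 9 genes and replicate 2 at 70.6%. On that scale replicate 2 was at 43.3% for *S1pr3*, 44.5% for *Cd44* and 39.4% for *Serpina3n*, and at 91.2% for *Gfap* and 91.6% for *Aspg*.

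**Figure D3:**
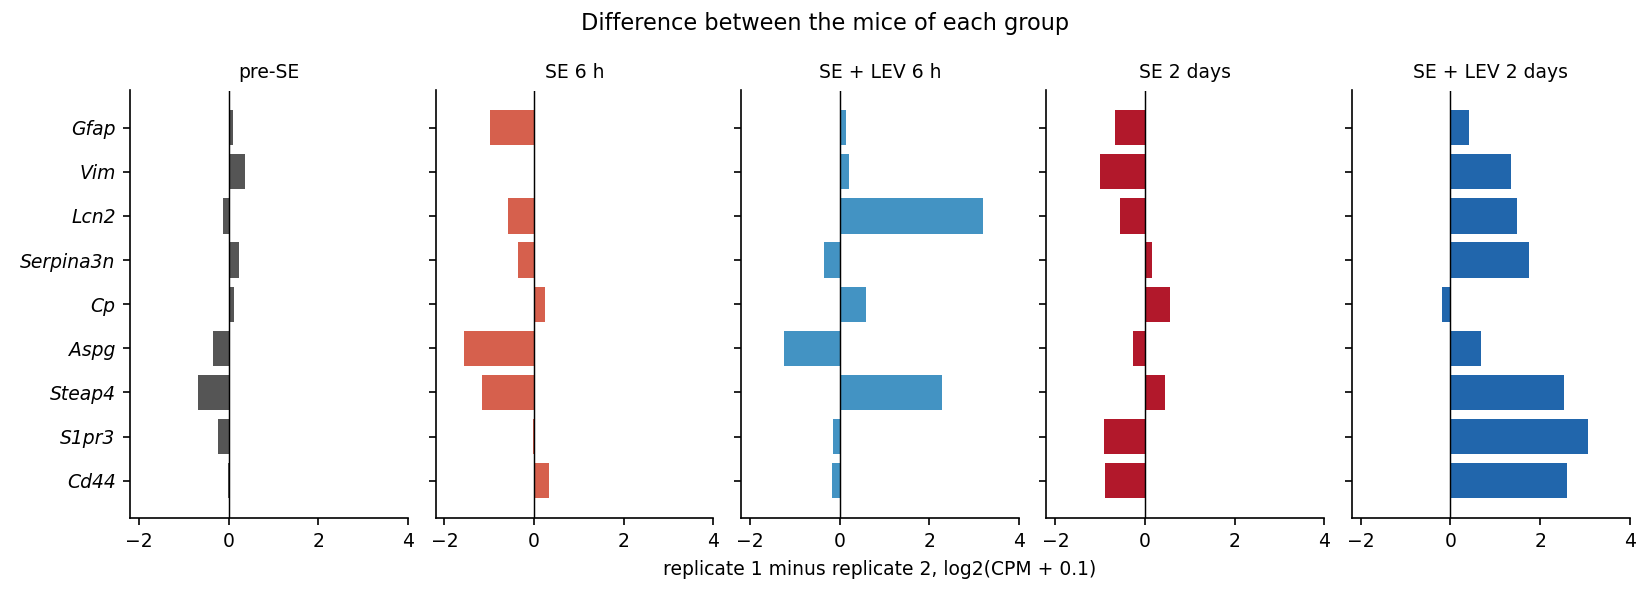
Difference between replicate 1 and replicate 2 in log2(CPM + 0.1) for each gene, by group. In SE + LEV 2 days mice 8 of 9 bars point to a higher value in replicate 1, with 3.08 for *S1pr3* and 2.60 for *Cd44*, and in SE + LEV 6 h mice *Lcn2* differs by 3.20.

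Marker genes of other cell types were set beside these values. The summed level of 6 genes listed as blood leukocyte markers was 2.69 and 3.53 CPM before SE and 12.1 to 15.5 CPM in the 4 mice at 6 h. At 2 days it was 58.9 and 74.1 CPM without LEV and 81.3 and 23.7 CPM with LEV. The value of 23.7 CPM was that of replicate 2, the mouse with the lower *S1pr3* and *Cd44*. Most of these sums at 2 days without LEV was *Msr1*, a scavenger receptor gene of macrophages, at 37.8 and 53.3 CPM. With LEV it was at 56.4 CPM in replicate 1 and 3.45 CPM in replicate 2. Of these 6 genes 3 were called higher at 2 days, *Msr1*, *Ptprc* and *Plac8*, while *Ccr2*, *Ly6c2*, *Cd3e* and *Ly6g* were not listed. *Mpo* was called higher at 6 h (logFC 4.26 ± 0.72) and, without LEV, lower at 2 days than at 6 h (-3.09 ± 0.72). *S100a8* and *S100a9* were not called against pre-SE mice at either time without LEV, and at 2 days they overlapped them. Whether the tags of this list came from blood cells or from cells of the tissue was not tested. The summed level of 8 microglia genes was 381 and 445 CPM before SE, 270 to 302 at 6 h and 898 to 1216 at 2 days. In SE + LEV 2 days mice it was 1216 CPM in replicate 1 and 951 CPM in replicate 2. For 8 endothelial genes the sum was 140 and 139 CPM in SE 2 days mice. In SE + LEV 2 days mice it was 123 CPM in replicate 1 and 167 CPM in replicate 2, the opposite order to *S1pr3* and *Cd44*. For 7 fibroblast and meningeal genes it was 134 and 117 CPM in those mice. The part of immune or vascular cells in the values of *Vim*, *Lcn2*, *S1pr3* and *Cd44* was not tested.

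Few of the 15 genes of astrocyte identity, such as glutamate transporters and gap junction genes, were called. At 6 h 0 of 15 passed the test in either direction, and at 2 days 1 was called higher, the water channel gene *Aqp4* (logFC 1.57 ± 0.29, adjusted p = 0.0107), and 0 lower. At 2 days without LEV the logFC was negative in 10 of the 15, as in 8366 of the 15851 genes tested. The median was -0.48 for the 15 and -0.03 for all genes. Their summed level was 4269 and 3504 CPM before SE, 2983 to 4048 CPM in the 4 mice at 6 h, and at 2 days 2467 and 2585 CPM without LEV and 2789 and 3485 CPM with LEV. The summed level of the 9 pan-reactive genes, most of it *Gfap*, was 350 and 320 CPM in pre-SE mice and 2809 to 5063 at 2 days.

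**Figure D4:**
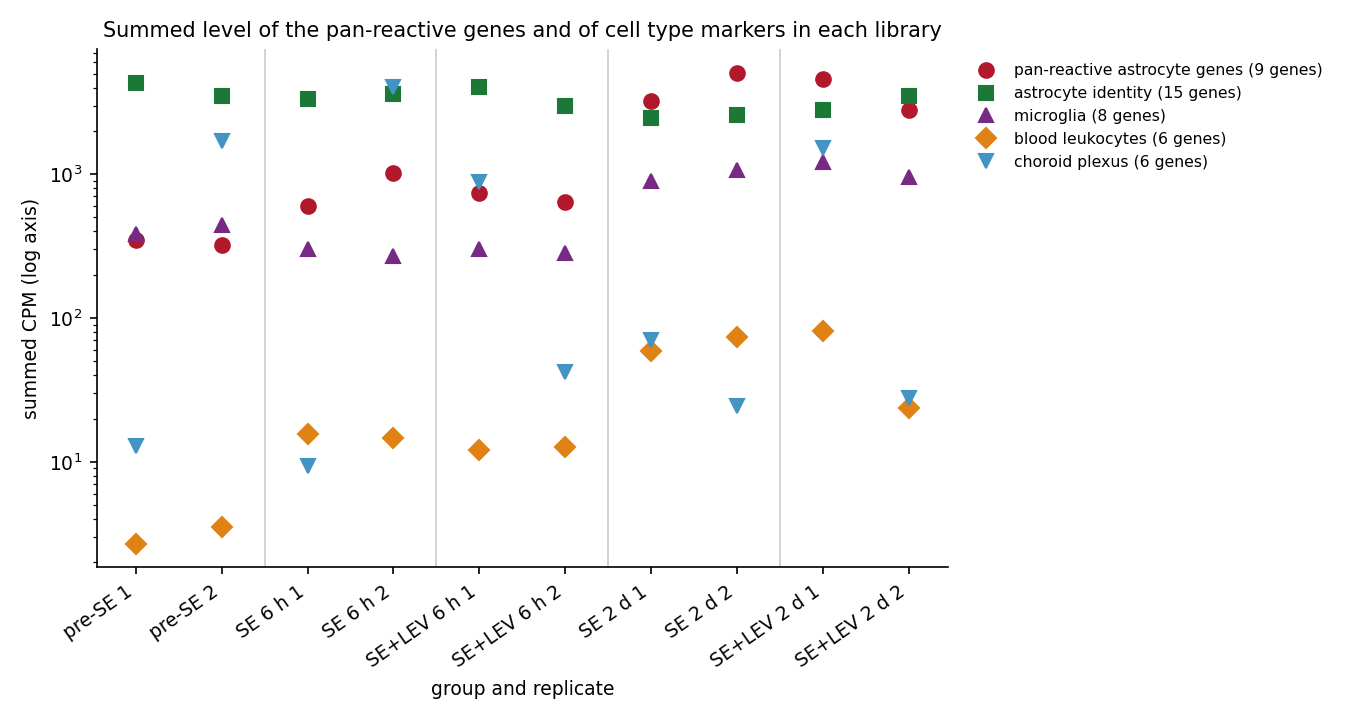
Summed CPM, on a log axis, of the 9 pan-reactive genes and of 4 lists of cell type markers in each library. The pan-reactive sum rose from 320 to 350 CPM in pre-SE mice to 2809 to 5063 at 2 days. The astrocyte identity sum ranged from 2467 to 4269, and both SE 2 days mice were below both pre-SE mice. The choroid plexus sum varied from 9.33 to 4031 within groups.

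Other genes of the reactive state were called alongside. Of the 4 other pan-reactive genes, the protease inhibitor gene *Timp1* (logFC 5.69 ± 0.84) and the oncostatin M receptor gene *Osmr* (3.52 ± 0.43) passed the test as higher at 6 h. All 4 did so at 2 days, with *Timp1* at 8.72 ± 0.84, the chemokine gene *Cxcl10* at 6.62 ± 0.89 and the heat shock gene *Hspb1* at 5.19 ± 1.10. The A2-type list, with 11 genes measured, had 8 calls at 6 h and 9 at 2 days, and the A1-type list, also with 11, had 1 and 7, each of them a higher level. Of 21 genes for inputs to reactive astrocytes, 8 were called higher at 6 h, among them the cytokine genes *Il6*, *Lif*, *Osm* and *Tnf* and the STAT3 target *Socs3* (logFC 6.46 ± 0.58, adjusted p = 0.00138). At 2 days 9 were, with *Stat3* itself at 2.18 ± 0.35 (adjusted p = 0.00560), and 0 were lower at either time. In none of these lists did a gene pass the test of LEV against SE mice. Only 2 of all 15851 genes passed it at 6 h, and 0 did at 2 days. The A2-type logFC there was negative in 11 of 11 genes at 6 h (median -1.40) and 10 of 11 at 2 days (-1.27). For the A1-type list these were 4 of 11 (0.22) and 9 of 11 (-0.38), and for the inputs 18 of 21 (-0.39) and 16 of 21 (-0.38). Over all 15851 genes the logFC was negative in 7007 at 6 h and 7062 at 2 days, with a median of 0.04 at both times. The summed A2-type level at 2 days was 555 and 1152 CPM in SE mice. With LEV it was 478 CPM in replicate 1 and 138 CPM in replicate 2. The lists were not tested as sets.

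Over the 10 libraries, on log2(CPM + 0.1), the 5 genes whose levels followed *Gfap* most closely were *C1qb* (Pearson r = 0.987), *S100a4* (0.984), *C1qc* (0.983), *Ms4a6c* (0.982) and *Akr1b8* (0.980). *C1qb* and *C1qc* encode chains of complement C1q, which microglia make. *C1qb* had 24.1 and 17.2 CPM before SE and 158 and 228 CPM at 2 days without LEV. The genes closest to the mean of the 9 members, each scaled to the same spread, were *Pros1* (0.988), *Bcl2a1a* (0.984), *Msr1* (0.984), *Csf2rb2* (0.982) and an entry for a U6 small nuclear RNA (0.978). *Msr1*, a scavenger receptor of macrophages, was at 37.8 and 53.3 CPM in SE 2 days mice and at 56.4 and 3.45 in SE + LEV 2 days mice. These values describe 10 libraries that share their groups, so that any gene that differs between the times resembles another in this measure.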

How the data were processed

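CAGE libraries of whole hippocampi from 10 mice were used. Tags were mapped to mm9 by the authors (BWA 0.7.17, HISAT2 2.0.5), who clustered them with RECLU, dropped clusters below 0.1 CPM and deposited CPM values, 1 for each gene and mouse, with 0 further per-mouse columns. How clusters were assigned to genes, and any batch, are not given in the sources used here. PILO was given at 290 mg/kg and oral LEV at 360 mg/kg.

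Depth was inferred: for a total found for each library, every deposited value fell within its rounding of 0.005 CPM of a whole number of tags. Values were transformed to log2(CPM + 0.1), and 15851 of 15900 genes (0.1 CPM or more in 2 or more libraries) were fitted with limma 3.58.1 in R 4.3.3, using all 10 libraries, 5 group means and a mean-variance trend. Tests were two-sided, p-values were adjusted by the Benjamini-Hochberg method over all genes tested, and an adjusted p of at most 0.05 was called. Sums, promoter searches and plots used Python 3.11.15, numpy 2.4.6, pandas 2.3.3 and matplotlib 3.10.9. The fit was tested on simulated data.

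As alternatives, the pseudocount was set to 0.01, 0.5 or 1, and the others were no filter, a filter of 1 CPM, median-of-ratios rescaling, the replicate number as a block, no trend, only the groups compared and each mouse left out. The genes named are all members, list genes on which a result turns, and the 5 genes most correlated with *Gfap* and with the mean of the members. The members and gene lists were chosen with earlier results of these data known.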

Additional observations from a re-analysis of the deposited data

Results flagged for a closer look

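The effect of SE differed between the times, by the direct test in limma, in 4 of the 9 genes, all higher at 2 days. Of all genes tested, 3.14% were called higher. SE 2 days mice were higher than SE 6 h mice by a logFC of 2.38 in *Gfap*, 2.52 in *Vim*, 2.09 in *Serpina3n* and 3.16 in *Cd44*. Under LEV the same test set SE + LEV 2 days mice higher than SE + LEV 6 h mice by 2.43 in *Gfap* and 3.45 in *Vim*, where 2.06% of all genes were called higher. Each of these 6 differences was positive with any single mouse left out, but all except *Vim* under LEV lost their call without some mouse. Groups of 2 mice are too small for a test of outlying mice.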

How the results depend on the processing

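With 2 mice a group the calls depended on single mice. The members called in SE 6 h against pre-SE mice numbered 0 to 5 with each mouse left out, 0 without either pre-SE or either SE 6 h mouse and 5 without either SE + LEV 2 days mouse. They numbered 5 to 8 in SE 2 days, 0 to 1 in SE + LEV 6 h and 2 to 7 in SE + LEV 2 days against pre-SE mice, 0 to 5 in SE 2 days against SE 6 h mice and 1 to 5 in SE + LEV 2 days against SE + LEV 6 h mice. The 0 of SE + LEV 6 h came without either pre-SE mouse or without SE + LEV 6 h replicate 1, the 2 of SE + LEV 2 days without either pre-SE mouse. The counts between the times were 1 without either SE 6 h mouse, 2 and 0 without SE 2 days replicates 1 and 2, and, with LEV, 1 without either SE + LEV 6 h mouse or SE + LEV 2 days replicate 1 and 5 without SE + LEV 2 days replicate 2. The lone mouse left in a group is then assumed to vary like the others. A pseudocount of 1 left 1 call at 6 h (*Vim*), and pseudocounts of 0.5 and 1 left 0 in SE + LEV 6 h mice. With no mean-variance trend *Steap4* at 6 h and *Serpina3n* between the times without LEV were lost, and with a filter of 1 CPM *Steap4* at 6 h. With only the groups compared, the counts were 5 in SE 6 h, 0 in SE + LEV 6 h and 3 in SE + LEV 2 days mice. The cause was not tested.

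The sign of a logFC changed in 21 of 81 results, always with a mouse left out and in no result called in the full fit. The ranges were -0.0014 to 0.35 for *Serpina3n* in SE 6 h and -0.030 to 0.33 in SE + LEV 6 h against pre-SE mice. In SE + LEV 6 h against SE 6 h mice they were -0.66 to 0.33 for *Gfap*, -0.55 to 2.66 for *Lcn2*, -0.20 to 0.15 for *Serpina3n* and -1.16 to 0.39 for *Aspg*. In SE + LEV 2 days against SE 2 days mice they were -0.45 to 0.22 for *Gfap*, -0.73 to 0.62 for *Vim*, -1.37 to 0.37 for *Serpina3n*, -0.55 to 0.016 for *Cp*, -0.22 to 0.46 for *Aspg*, -2.12 to 0.41 for *Steap4* and -3.07 to 0.0059 for *S1pr3*. Between the times they were -0.30 to 0.26 for *Cp* without LEV, and -2.67 to 0.53 for *Lcn2* and -0.93 to 1.60 for *Steap4* with it. In the comparison of LEV effects between the times they were -0.44 to 0.55 for *Gfap*, -1.35 to 0.40 for *Serpina3n*, -0.27 to 1.29 for *Aspg*, -2.15 to 0.93 for *S1pr3* and -2.25 to 0.35 for *Cd44*.

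With the replicate number as a block, 2 members were called in SE 6 h against pre-SE mice, since *Steap4* was lost, and 7 in SE 2 days against pre-SE mice, and no other call changed. Same-numbered mice are different animals, and the labels do not say whether they were handled together. The correlations of their deviations ran from -0.44 to 0.34 over the comparisons. With 2 mice a group these correlations can neither show nor exclude a pairing. A block with the numbers of SE + LEV 2 days mice crossed, chosen after seeing the data, gave 0 calls against SE 2 days and 7 against pre-SE mice. Count tests in edgeR and DESeq2 were planned and not run, since the deposited values are rounded CPM and were not taken as counts.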

Other observations

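Among themselves, the 9 genes formed 36 pairs, whose Pearson correlations over the 10 libraries on log2(CPM + 0.1) ran from -0.05 (*Serpina3n* and *Cp*) to 0.995 (*S1pr3* and *Cd44*), with a median of 0.667. *Gfap* and *Vim* had r = 0.973. These are descriptions over mice that share groups. The pair at the top also differed in the same direction within both groups at 2 days. In SE + LEV 2 days mice replicate 1 exceeded replicate 2 by 8.49-fold in *S1pr3* and 6.08-fold in *Cd44*. In SE 2 days mice replicate 2 exceeded replicate 1 by 1.87-fold in each. In SE 6 h mice the signs were opposite, with replicate 1 minus replicate 2 at -0.03 for *S1pr3* and 0.34 for *Cd44* on the log2 scale. In the same pair of SE + LEV 2 days mice, *Gfap* differed by 1.33-fold and *Cp* by 1.15-fold in the opposite direction.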
